A study of Rattus with 6 samples.

Results

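The lysosomal genes of cultures labelled as aortic vascular smooth muscle cells were measured after CDCP1 knockdown (si-CDCP1) and with a control siRNA (si-NC). The set holds 49 protein-coding genes of the 54012 genes in the deposited table (22058 of them protein coding), chosen by name: subunits of the vacuolar proton pump (V-ATPase), cathepsins and other lysosomal hydrolases, lysosomal membrane proteins and the transcription factors Tfeb and Tfe3. Of 50 names, Limp2 has no row of its own because it is another name of Scarb2. The si-CDCP1 cultures (3 libraries, genotype label CDCP1 knockdown) received an siRNA against CDCP1, a transmembrane glycoprotein, and the si-NC cultures (3 libraries, genotype label WT) a control siRNA. Both groups are labelled as primary cultures from aorta, and both were given Ang II, that is angiotensin II, the vasoconstrictor peptide of the renin system. Neither a dose or duration of Ang II nor the number of animals behind the cultures is given in the labels.

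Lysosomes are acidic compartments that break down proteins, glycans and lipids delivered by endocytosis and autophagy. The V-ATPase acidifies them: its membrane sector V0 conducts protons and its cytosolic sector V1 hydrolyses ATP to drive the passage. Soluble hydrolases work at that acidic pH, and heavily glycosylated membrane proteins line the compartment. Tfeb and Tfe3 are transcription factors that bind a shared DNA element in many lysosomal genes and enter the nucleus when the kinase complex mTORC1 is inactive. In smooth muscle cells lysosomal proteases are known for their part in matrix turnover and in the clearing of autophagic cargo.

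The values are FPKM, fragments per kilobase of gene length scaled by library. Levels of different genes can be compared only as far as the deposited gene lengths hold, which was not tested. Library depth lay between 16050517 and 19771638 reads in listed genes. The organism label is rat while the genes are mouse genes on mm10, so that a value near 0 need not mean an absent transcript. Effects of this on the order of genes by level were not tested. Cdcp1, the siRNA target, had 0, 5 and 0 reads in the si-CDCP1 libraries and 2, 2 and 1 reads in the si-NC libraries, too few to check the labels. Of 9 smooth muscle markers, Acta2 and Smtn averaged 1 FPKM or more, and the summed level lay between 44.7 and 75.9 FPKM in si-CDCP1 and between 46.04 and 50.5 FPKM in si-NC. The label is not borne out by the other defining markers: Myh11, Cnn1 and Tagln were each under 0.25 FPKM in every library. Acta2 averaged 46.8 ± 15.5 FPKM in si-CDCP1 and 37.4 ± 1.95 FPKM in si-NC (SD, n = 3 each), a log2 difference of 0.27 with all libraries and 0.022 without si-CDCP1 replicate 3. Of 5 fibroblast markers, Col1a1 averaged 278 ± 18.8 FPKM in si-CDCP1 and 279 ± 17.2 FPKM in si-NC (SD, n = 3 each), Lum and Thy1 were each under 0.03 FPKM in every library, and the summed level lay between 274 and 308 FPKM in si-CDCP1 and between 277 and 309.9 FPKM in si-NC. Pdgfra averaged 8.69 ± 0.984 FPKM in si-CDCP1 and 10.4 ± 0.361 FPKM in si-NC (SD, n = 3 each) and was lower in every si-CDCP1 library. Dcn averaged 1.26 ± 0.150 FPKM in si-CDCP1 and 1.27 ± 0.299 FPKM in si-NC (SD, n = 3 each). The part of these markers in the results was not tested. The si-CDCP1 replicate 3 library stands apart, with 34% of the 12080 tested genes above every other library. Many results below are given with and without it, and the others rest on all 6 libraries unless stated. Macrophages are rich in lysosomes, and of 9 macrophage markers Adgre1 and Itgam were listed at 0 in all 6 libraries. Ptprc was at 0 in every si-CDCP1 library and at most 0.0153 FPKM in si-NC. Csf1r, Aif1 and Fcgr1 were at most 0.0753 FPKM in any library, and Cd68, Lyz2 and Cd14 averaged 1 FPKM or more. The summed level of the list lay between 14.8 and 16.3 FPKM in si-CDCP1 and between 13.9 and 16.1 FPKM in si-NC. Of the detected markers, Cd14 averaged 12.8 ± 0.817 FPKM in si-CDCP1 and 11.9 ± 1.18 FPKM in si-NC (SD, n = 3 each), and its groups overlapped. Lyz2 averaged 2.11 ± 0.229 FPKM in si-CDCP1 and 1.65 ± 0.0824 FPKM in si-NC (SD, n = 3 each). Cd68 averaged 0.822 ± 0.0936 FPKM in si-CDCP1 and 1.27 ± 0.0462 FPKM in si-NC (SD, n = 3 each). The part of these macrophage markers in the results was not tested. In such bulk cultures, fewer cells of a type and less RNA per cell cannot be told apart.

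Lysosomal transcripts were higher in si-CDCP1 for most genes of the set, by modest amounts, and none passed the threshold over all genes. Of the 49 genes, 46 reached a mean of 1 FPKM and were tested, and 41 of these 46 had a positive log2 difference (89.1%), against 52.3% of all genes tested. Differences are si-CDCP1 minus si-NC of log2(FPKM + 1), a scale on which genes of low level show less than their true change. Their median was 0.15, against 0.01 over all genes tested. The limma test with Benjamini-Hochberg (BH) adjustment over all 12080 genes called 0 of the 46 at 0.05 (0% of all genes), and limma voom on recovered reads also called 0 of 46. At an unadjusted p under 0.05, limma had 22 of the 46 higher (47.8%), against 8.94% of all genes, and 0 lower, against 5.31%. Among genes averaging 5 FPKM or more, as 44 of the 46 do, the share higher at that p was 12% and the share with a positive difference 58.7%. The 22 came down to 13 without si-NC replicate 1, to 14 without si-NC replicate 2 and to 14 when FPKM sums were made equal over the libraries. The shares of all genes at that p were not counted in those fits, so whether the drop is particular to the set is not known. With equal FPKM sums 32 of the 46 differences were positive, where the median over all genes was -0.039. The share of all genes with a positive difference was not counted in that rescaling.

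**Figure D1:**
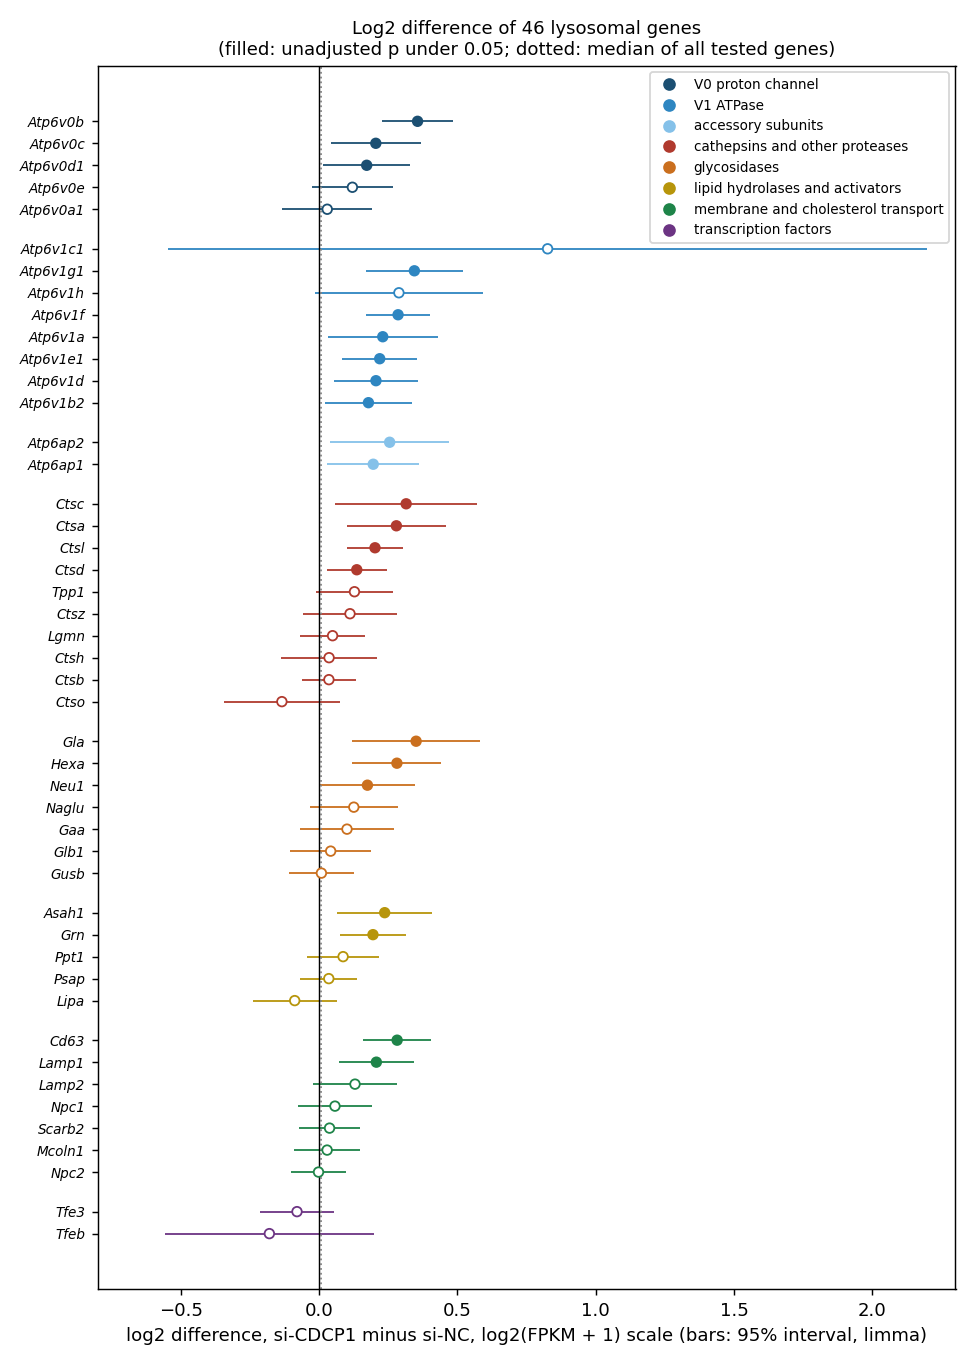
Log2 difference (si-CDCP1 minus si-NC, log2(FPKM + 1) scale, x axis) of the 46 tested lysosomal genes, grouped by class down the page. Points are estimates with 95% intervals from limma, and filled points have an unadjusted p under 0.05 (22 genes, all to the right of 0). The dotted line is the median of all tested genes.

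The summed level of the 49 genes was 3489, 3404 and 3608 FPKM in si-CDCP1 replicates 1, 2 and 3, against 3075, 3099 and 3162 FPKM in si-NC. These sums made up between 1.18% and 1.23% of all FPKM in the si-CDCP1 libraries and between 1.09% and 1.12% in the si-NC libraries, with no overlap between the groups. Groups that did not overlap were also seen in 25 of the 46 genes with si-CDCP1 higher (54.3%), against 14.4% of all genes, and in 1 with si-CDCP1 lower, against 10.6%. In si-CDCP1 replicate 3, 25 of the 46 genes lay above every other library (54.3%), where 34% of all genes did, and 4 lay below every other library, where 30% did. Without that library 39 of the 46 differences were positive, against 52.2% of all genes, with a median of 0.14, and 24 had an unadjusted p under 0.05 and were higher, against 10.8%, with 0 lower, against 5.81%.

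**Figure D2:**
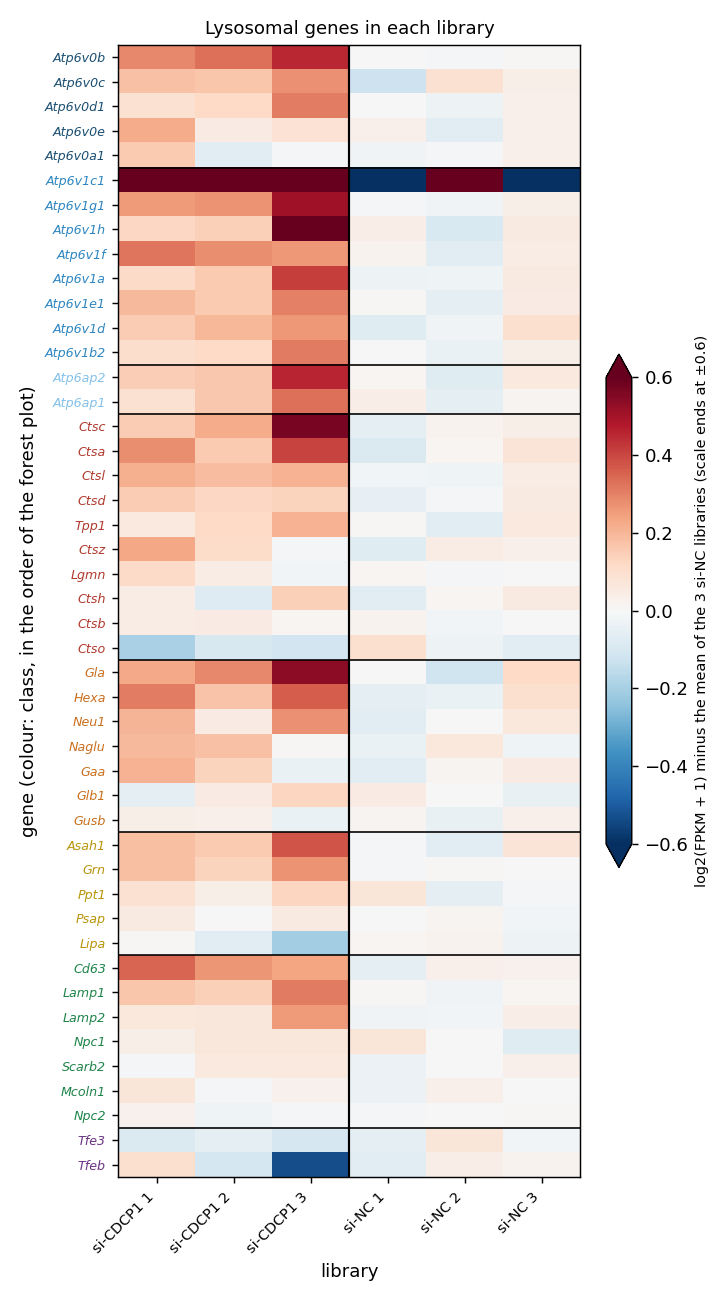
Log2(FPKM + 1) of each tested gene (rows) in each library (columns), as the difference from the mean of the 3 si-NC libraries. The 3 si-CDCP1 columns on the left are mostly red with replicate 3 the deepest, and Atp6v1c1 runs off the scale of ±0.6 in every library.

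All 15 V-ATPase genes of the set had positive differences, with a median of 0.22. The share positive was 52.3% over all genes and 58.7% over those averaging 5 FPKM or more, as all 15 do. Atp6v0a1 alone of the 15 turned negative with equal FPKM sums, with library weights or without si-CDCP1 replicate 1. Other V-ATPase genes, outside the set, went in both directions and are given below. In limma, 11 of the 15 in the set were higher at an unadjusted p under 0.05, against 11 of the other 31 tested genes, whose median was 0.10. Of all genes, 8.94% were higher at that p, and of those averaging 5 FPKM or more, 12%. The gap between pump genes and the rest was not tested. Summed over the 15 genes, the level was 760, 763 and 862 FPKM in si-CDCP1 replicates 1, 2 and 3, against 658, 654 and 674 FPKM in si-NC. Without si-CDCP1 replicate 3 all 15 differences were still positive, with a median of 0.15. In that fit 11 were higher at an unadjusted limma p under 0.05, against 10.8% of all genes.

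In the V0 sector, the largest difference belonged to Atp6v0b (ENSMUSG00000033379, mm10 chromosome 4, 117884326 to 117887333, minus strand), a proteolipid of the rotating proton-carrying ring. Its level was 74.8, 76.9 and 83.8 FPKM in si-CDCP1 replicates 1, 2 and 3, against 61.1, 60.7 and 61.3 FPKM in si-NC. The si-NC libraries lay within 1 FPKM of each other, and every si-CDCP1 library was above them. The log2 difference was 0.36 (SE 0.054), with a BH-adjusted p of 0.217 in limma, and 0.31 without si-CDCP1 replicate 3. Atp6v0c, the main proteolipid of the same ring, stood at 25.9, 25.8 and 27.9 FPKM in si-CDCP1 against 20.9, 24.4 and 23.5 FPKM in si-NC. The groups did not overlap, and the log2 difference was 0.20 (SE 0.068), or 0.17 without si-CDCP1 replicate 3. Atp6v0d1, which joins the ring to the central stalk, stood at 80.1, 81.7 and 93.4 FPKM in si-CDCP1 against 75.2, 73.7 and 76.9 FPKM in si-NC, with a log2 difference of 0.17 (SE 0.066), or 0.10 with si-CDCP1 replicate 3 left out. The small membrane subunit gene Atp6v0e had a log2 difference of 0.12 (SE 0.062). The stator subunit Atp6v0a1, which forms the proton half-channels, averaged 11.1 ± 0.982 FPKM in si-CDCP1 and 10.8 ± 0.218 FPKM in si-NC (SD, n = 3 each), and its interval of -0.13 to 0.19 spans 0. Of the other genes for the same stator position, which are no part of the set, Tcirg1 averaged 43.1 ± 2.78 FPKM in si-CDCP1 and 47.2 ± 0.686 FPKM in si-NC, with si-CDCP1 lower, and Atp6v0a2 19.03 ± 0.566 FPKM in si-CDCP1 and 18.4 ± 0.591 FPKM in si-NC (SD, n = 3 each).

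In the V1 sector, Atp6v1g1 and Atp6v1f were the most abundant. Atp6v1g1 (ENSMUSG00000039105, mm10 chromosome 4, 63544772 to 63550750, plus strand), part of the peripheral stalk, stood at 149.5, 151 and 178 FPKM in si-CDCP1 replicates 1, 2 and 3, against 124, 123 and 128 FPKM in si-NC. All si-CDCP1 libraries were above all si-NC libraries, with replicate 3 the highest, and the log2 difference was 0.34 (SE 0.075, limma BH-adjusted p = 0.267), or 0.26 without that library. Atp6v1f (ENSMUSG00000004285, mm10 chromosome 6, 29467718 to 29470512, plus strand), part of the central rotor, stood at 115, 111 and 109.8 FPKM in si-CDCP1 replicates 1, 2 and 3, against 93.04, 87.5 and 94.4 FPKM in si-NC. Here replicate 3 was the lowest of the si-CDCP1 libraries and the groups were still apart, with a log2 difference of 0.29 (SE 0.049, limma BH-adjusted p = 0.238) and 0.30 without it. These genes and Atp6v0b are short, and with each library's trend over gene length removed their differences were 0.30 for Atp6v1g1, 0.25 for Atp6v1f and 0.32 for Atp6v0b.

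The catalytic core genes of V1 had smaller differences than Atp6v1g1 and Atp6v1f, as did Atp6v1e1 and Atp6v1d, and the gap was not tested. Atp6v1a, the subunit that hydrolyses ATP, stood at 34.4, 35.4 and 42.5 FPKM in si-CDCP1 against 31.00, 31.01 and 32.9 FPKM in si-NC. Atp6v1b2, which pairs with it in the catalytic head, stood at 37.5, 37.9 and 43.4 FPKM in si-CDCP1 against 34.8, 33.8 and 35.7 FPKM in si-NC. In both genes si-CDCP1 replicate 3 was well above the other 2 si-CDCP1 libraries, and the log2 differences of 0.23 and 0.18 went to 0.14 and 0.11 without it. Atp6v1e1, a peripheral stalk subunit, stood at 25.97, 25.2 and 28.1 FPKM in si-CDCP1 against 22.6, 21.7 and 23.3 FPKM in si-NC, and the rotor subunit gene Atp6v1d at 9.84, 10.2 and 10.7 FPKM in si-CDCP1 against 8.26, 8.60 and 9.39 FPKM in si-NC. Neither gene overlapped between the groups, with log2 differences of 0.22 (SE 0.058) for Atp6v1e1 and 0.21 (SE 0.064) for Atp6v1d, both 0.18 without si-CDCP1 replicate 3. Atp6v1h, a regulatory subunit, had a log2 difference of 0.29 (SE 0.13) that rested on si-CDCP1 replicate 3 at 18.5 FPKM and was 0.13 without it.

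Atp6v1c1, which links V1 to V0, was singled out after its values were seen because its si-NC libraries disagreed. It stood at 8.43, 9.34 and 12.5 FPKM in si-CDCP1 replicates 1, 2 and 3, against 2.36, 16.4 and 3.03 FPKM in si-NC. The si-NC replicate 2 value was the highest of all 6 and the other 2 si-NC values the lowest, so that the groups overlapped. The highest si-NC value was 6.96 times the lowest, the third-largest such ratio among 8148 genes averaging 5 FPKM or more, whose median ratio was 1.08. The log2 difference of 0.83 (SE 0.58) had an interval of -0.54 to 2.20. It was 0.68 without si-CDCP1 replicate 3, 1.57 without si-NC replicate 2, 0.39 without si-NC replicate 1 and 0.52 without si-NC replicate 3.

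Of the accessory subunits, Atp6ap1, a glycoprotein that assists pump assembly, stood at 79.3, 83.2 and 93.9 FPKM in si-CDCP1 against 76.5, 71.3 and 75.2 FPKM in si-NC. Atp6ap2, also known as the (pro)renin receptor, stood at 69.8, 70.5 and 86.7 FPKM in si-CDCP1 against 63.5, 59.8 and 65.6 FPKM in si-NC. Both were higher in every si-CDCP1 library, with log2 differences of 0.20 (SE 0.07) for Atp6ap1 and 0.25 (SE 0.091) for Atp6ap2. Without si-CDCP1 replicate 3 these were 0.13 and 0.15.

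**Figure D3:**
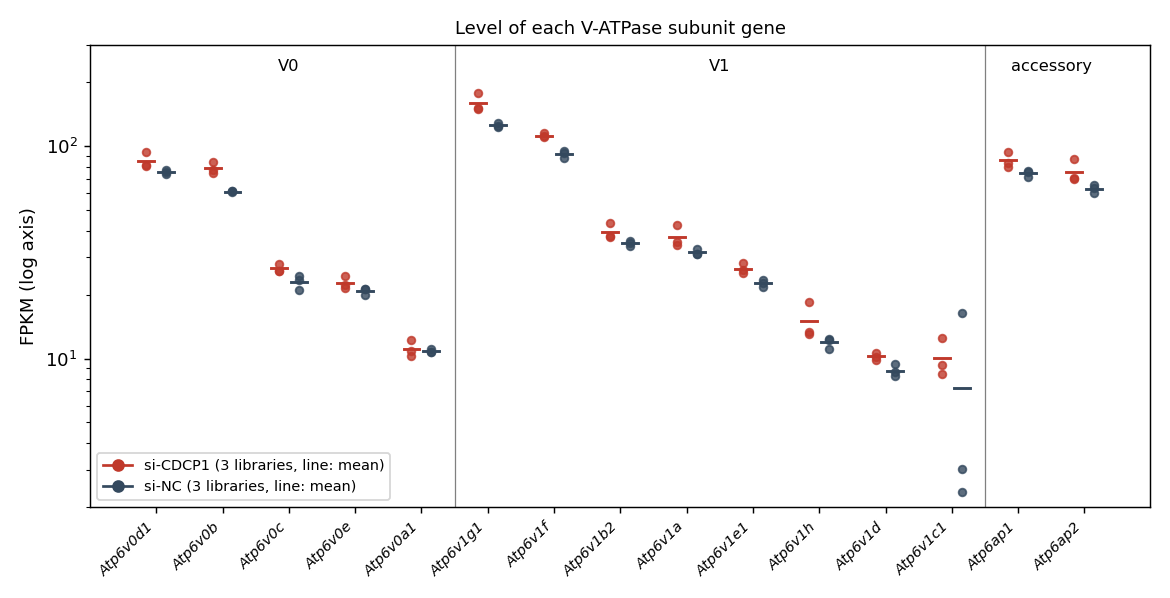
Level of the 15 V-ATPase subunit genes in FPKM on a log axis, with si-CDCP1 left of si-NC in each pair, a point for each of the 3 libraries of a group and a line for their mean. The si-CDCP1 means run from 159.5 FPKM for Atp6v1g1 to 10.1 FPKM for Atp6v1c1, to which the scattered si-NC points belong.

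Subunits of the same pump differed widely in FPKM, which depends on the deposited gene lengths. Within V1, the mean ranged from 159.5 FPKM in si-CDCP1 and 125 FPKM in si-NC for Atp6v1g1 to 10.1 FPKM in si-CDCP1 and 7.28 FPKM in si-NC for Atp6v1c1. Within V0 it ranged from 85.1 FPKM in si-CDCP1 and 75.3 FPKM in si-NC for Atp6v0d1 to 11.1 FPKM in si-CDCP1 and 10.8 FPKM in si-NC for Atp6v0a1. The order of the V0 genes by mean was Atp6v0d1, Atp6v0b, Atp6v0c, Atp6v0e and Atp6v0a1 in both groups.

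Among the cathepsins and other proteases, 9 of 10 tested genes had positive differences, against 52.3% of all genes (median 0.12, and 0.11 without si-CDCP1 replicate 3). In limma, 4 were higher at an unadjusted p under 0.05, against 8.94% of all genes, and 0 lower, against 5.31%. The summed level of the 13 genes was 875, 844 and 845 FPKM in si-CDCP1 replicates 1, 2 and 3, against 769, 785 and 803 FPKM in si-NC.

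Ctsl (ENSMUSG00000021477, mm10 chromosome 13, 64359337 to 64370890, minus strand) encodes cathepsin L, a cysteine endopeptidase. It stood at 84.3, 82.7 and 83.9 FPKM in si-CDCP1 replicates 1, 2 and 3, against 71.6, 71.3 and 74.9 FPKM in si-NC. The replicates were close within each group and the groups apart, with a log2 difference of 0.20 (SE 0.043, limma BH-adjusted p = 0.267) and 0.20 without si-CDCP1 replicate 3. Ctsa, the protective protein that shields beta-galactosidase and sialidase, stood at 79.5, 72.9 and 86.8 FPKM in si-CDCP1 against 61.5, 65.9 and 69.1 FPKM in si-NC. Its groups were apart, with a log2 difference of 0.28 (SE 0.076), or 0.22 without si-CDCP1 replicate 3. The reads of Ctsa and of Pltp, a gene on the opposite strand that overlaps it by 1515 bases, cannot be told apart where strand was not used. Ctsd, the main aspartic protease of lysosomes, stood at 182, 179 and 179.9 FPKM in si-CDCP1 against 159, 163 and 170.2 FPKM in si-NC, with groups apart and a log2 difference of 0.14 (SE 0.046), the same without replicate 3 at 0.14. Ctsc, which activates granule serine proteases, stood at 9.69, 10.2 and 13.3 FPKM in si-CDCP1 against 8.26, 8.74 and 8.85 FPKM in si-NC. Its log2 difference of 0.31 (SE 0.11) was 0.19 without si-CDCP1 replicate 3.

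The other 6 tested proteases had log2 differences between -0.13 and 0.13. Ctsz, an exopeptidase and the most abundant cathepsin gene here, stood at 203, 187 and 172 FPKM in si-CDCP1 against 164, 178 and 177 FPKM in si-NC. Replicate 3 lay inside the si-NC range while the other 2 si-CDCP1 libraries were above it, and the log2 difference of 0.11 (SE 0.072) was 0.17 without replicate 3. Ctsb, the cysteine protease most often measured in lysosomal damage, averaged 164 ± 2.36 FPKM in si-CDCP1 and 160.00 ± 2.17 FPKM in si-NC (SD, n = 3 each). Its log2 difference was 0.035, with a 95% interval of -0.063 to 0.13, and Fdft1 on the opposite strand overlaps it by 774 bases. Tpp1, a tripeptidyl peptidase, had a log2 difference of 0.13, or 0.088 without si-CDCP1 replicate 3, and its groups did not overlap. The asparaginyl endopeptidase gene Lgmn had 0.049, which was 0.081 without si-CDCP1 replicate 3 and -0.0053 with equal FPKM sums. Ctsh, an aminopeptidase, had 0.036, which was -0.017 without si-CDCP1 replicate 3. Ctso averaged 1.78 ± 0.0983 FPKM in si-CDCP1 and 2.05 ± 0.186 FPKM in si-NC (SD, n = 3 each) and was the gene of the set lower in every si-CDCP1 library. Ctsk, Ctsf and Ctss were below the filter: Ctsk, the collagen-degrading protease of osteoclasts, had 11 reads over the si-CDCP1 libraries and 18 over the si-NC libraries, Ctsf had 5 reads in si-CDCP1 and 4 in si-NC, and Ctss, typical of antigen-presenting cells, had 0 reads in si-CDCP1 and 1 in si-NC.

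All 7 glycosidases had positive differences (all but Glb1 and Gusb with equal FPKM sums), with a median of 0.13. The share positive was 52.3% over all genes and 58.7% over those averaging 5 FPKM or more, as all 7 do. In limma, 3 were higher at an unadjusted p under 0.05, against 8.94% of all genes and 12% of those averaging 5 FPKM or more, and 0 lower. Without si-CDCP1 replicate 3, 6 were positive with a median of 0.17. At that p 4 were then higher, against 10.8% of all genes. Hexa, the alpha subunit of the enzyme that degrades GM2 ganglioside, stood at 99.98, 90.98 and 104 FPKM in si-CDCP1 against 77.6, 78.3 and 86.2 FPKM in si-NC. Gla, which removes terminal galactose from glycolipids, stood at 19.8, 20.7 and 24.8 FPKM in si-CDCP1 against 16.8, 15.4 and 18.3 FPKM in si-NC. Both were higher in every si-CDCP1 library, with log2 differences of 0.28 (SE 0.068) for Hexa and 0.35 (SE 0.098) for Gla, and of 0.24 and 0.26 without si-CDCP1 replicate 3. Neu1, the lysosomal sialidase, stood at 12.95, 11.6 and 13.6 FPKM in si-CDCP1 against 10.6, 11.1 and 11.7 FPKM in si-NC. Its groups overlapped at a log2 difference of 0.17 (SE 0.073), or 0.13 without si-CDCP1 replicate 3. Gaa, which degrades glycogen, stood at 150.4, 143 and 127 FPKM in si-CDCP1 against 124, 132 and 134 FPKM in si-NC. In si-CDCP1 replicate 3 it lay inside the si-NC range, so that its log2 difference of 0.10 (SE 0.072) was 0.17 without that library. Naglu, an enzyme of heparan sulfate breakdown, behaved alike in that library, with 0.13 and 0.18. Glb1 and Gusb, the beta-galactosidase and beta-glucuronidase genes, had log2 differences of 0.042 and 0.0082, and that of Glb1 was -0.0029 without si-CDCP1 replicate 3.

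Of the lipid hydrolases and their activators, Grn and Asah1 were higher in every si-CDCP1 library, as were 14.4% of all genes. Of the 5 genes in this class, 4 had positive differences (median 0.087, and 0.065 without si-CDCP1 replicate 3), against 52.3% of all genes. In limma, 2 were higher at an unadjusted p under 0.05, against 8.94% of all genes, and 0 lower, against 5.31%. Grn, which encodes the lysosomal glycoprotein progranulin, stood at 149, 144 and 158 FPKM in si-CDCP1 against 129.99, 132 and 132 FPKM in si-NC, a log2 difference of 0.19 (SE 0.05). Asah1, acid ceramidase, stood at 105, 103 and 119.9 FPKM in si-CDCP1 against 91.5, 88.1 and 97.4 FPKM in si-NC, a log2 difference of 0.24 (SE 0.073). Without si-CDCP1 replicate 3 these differences were 0.16 for Grn and 0.17 for Asah1. Psap, the precursor of the saposins that present sphingolipids to their hydrolases, stood at 379.9, 367 and 379.9 FPKM in si-CDCP1 against 366, 371 and 362 FPKM in si-NC. It was the most abundant transcript of this class, and its groups overlapped at a log2 difference of 0.035 (SE 0.043). Ppt1, which removes fatty acids from proteins, had a log2 difference of 0.087. Lipa, the acid lipase that releases cholesterol from its esters, averaged 26.9 ± 2.08 FPKM in si-CDCP1 and 28.6 ± 0.571 FPKM in si-NC (SD, n = 3 each), and its log2 difference of -0.088 (SE 0.064) was -0.029 without si-CDCP1 replicate 3.

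Among the membrane and cholesterol transport proteins, Cd63, Lamp1 and Lamp2 were higher in every si-CDCP1 library, as were 14.4% of all genes. The groups of the other 4 genes overlapped. Of the 7 genes, 6 had positive differences, against 52.3% of all genes. In limma, 2 were higher at an unadjusted p under 0.05, against 8.94% of all genes, and 0 lower, against 5.31%. Cd63 (ENSMUSG00000025351, mm10 chromosome 10, 128900989 to 128912822, plus strand), a tetraspanin of late endosomes, stood at 214, 202 and 198 FPKM in si-CDCP1 replicates 1, 2 and 3, against 162, 171 and 171 FPKM in si-NC. Here si-CDCP1 replicate 3 was the lowest of its group and still above every si-NC library, with a log2 difference of 0.28 (SE 0.052, limma BH-adjusted p = 0.238) and 0.31 without it. A transcribed copy, Cd63-ps, with which Cd63 could share reads, stood at 75.1, 67.6 and 75.0 FPKM in si-CDCP1 and 63.5, 60.8 and 63.2 FPKM in si-NC, so that the split between them is uncertain. Lamp1 (ENSMUSG00000031447, mm10 chromosome 8, 13159161 to 13175338, plus strand), the most abundant gene of the set and a main glycoprotein of the lysosomal membrane, stood at 449.9, 444 and 498 FPKM in si-CDCP1 replicates 1, 2 and 3, against 404, 395 and 405 FPKM in si-NC. Its log2 difference was 0.21 (SE 0.058, limma BH-adjusted p = 0.275) and 0.15 without si-CDCP1 replicate 3. Grtp1, on the opposite strand, overlaps Lamp1 by 3317 bases, and without strand their reads cannot be told apart there.

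Lamp2, the partner of Lamp1 and a receptor of chaperone-mediated autophagy, stood at 57.1, 57.3 and 65.4 FPKM in si-CDCP1 against 53.8, 53.9 and 56.1 FPKM in si-NC. The groups did not overlap, and the log2 difference of 0.13 (SE 0.064) was 0.066 without si-CDCP1 replicate 3. Scarb2, an integral membrane protein of lysosomes, averaged 29.1 ± 0.812 FPKM in si-CDCP1 and 28.3 ± 0.633 FPKM in si-NC (SD, n = 3 each). The cholesterol exporters Npc1 and Npc2 had log2 differences of 0.057 and -0.0022, and the 95% interval of Npc2 was -0.10 to 0.10. Mcoln1, the lysosomal calcium channel gene, averaged 13.3 ± 0.424 FPKM in si-CDCP1 and 12.98 ± 0.306 FPKM in si-NC (SD, n = 3 each). The description column of the deposited table gives a formin for the Mcoln1 row, so this gene rests on its name and Ensembl identifier alone. Over the 7 genes of this class the median was 0.06, and 0.05 without si-CDCP1 replicate 3.

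**Figure D4:**
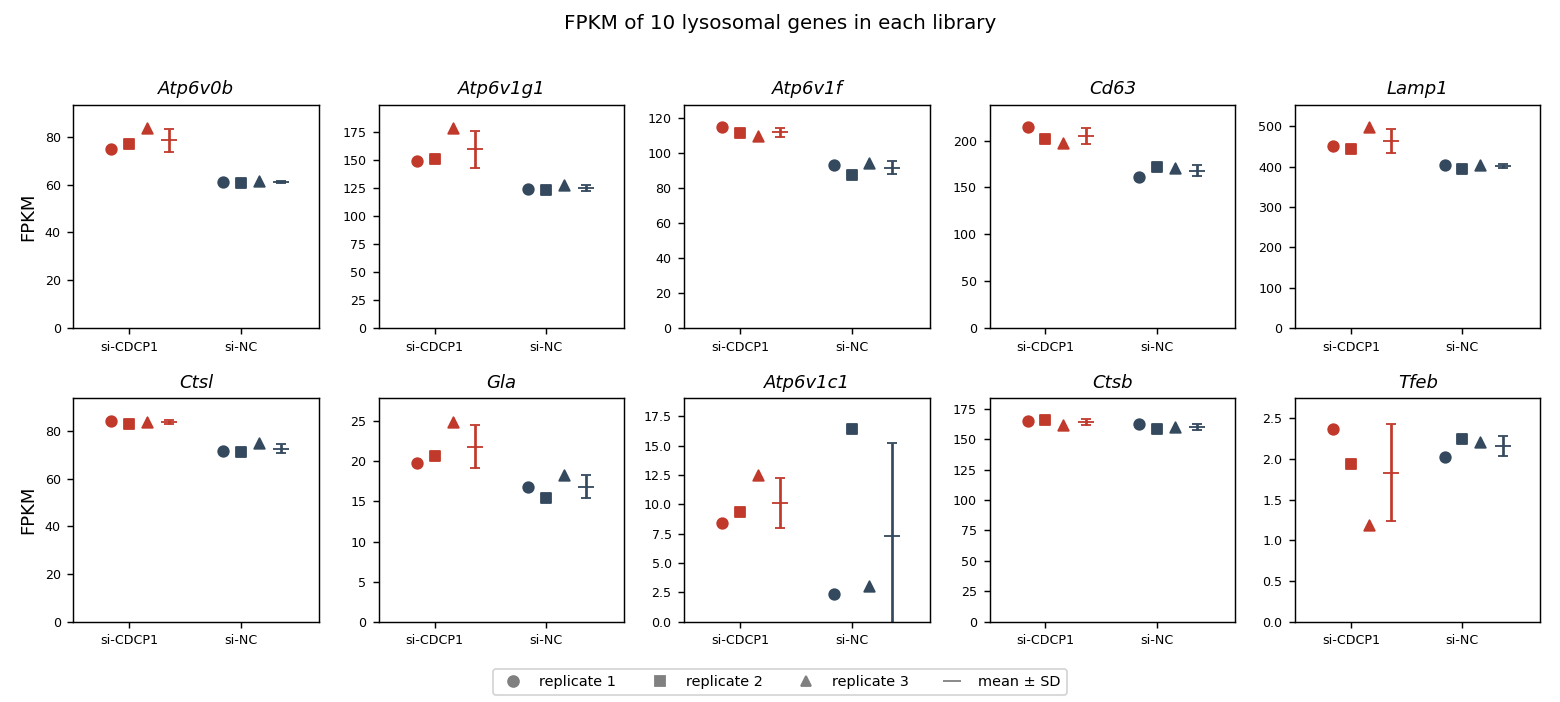
FPKM of 10 lysosomal genes by library (y axis from 0, a marker for each replicate number, bars for mean ± SD, si-CDCP1 left of si-NC). Atp6v0b, Atp6v1g1, Atp6v1f, Cd63, Lamp1, Ctsl and Gla do not overlap between the groups, while Atp6v1c1, Ctsb and Tfeb do, and the SD bar of Atp6v1c1 in si-NC is cut off at 0.

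Both transcription factor genes had small negative differences, and their groups overlapped. Tfe3 stood at 7.41, 7.60 and 7.31 FPKM in si-CDCP1 against 7.59, 8.37 and 7.81 FPKM in si-NC, a log2 difference of -0.080 (SE 0.057). Tfeb stood at 2.37, 1.94 and 1.19 FPKM in si-CDCP1 against 2.02, 2.25 and 2.21 FPKM in si-NC. Its value in si-CDCP1 replicate 3 was the lowest of all 6 libraries, the library in which 25 of the 46 tested genes were the highest. The log2 difference of Tfeb was -0.18 (SE 0.16), and -0.0047 without that library. Transcript levels do not show where these proteins were in the cell.

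**Figure D5:**
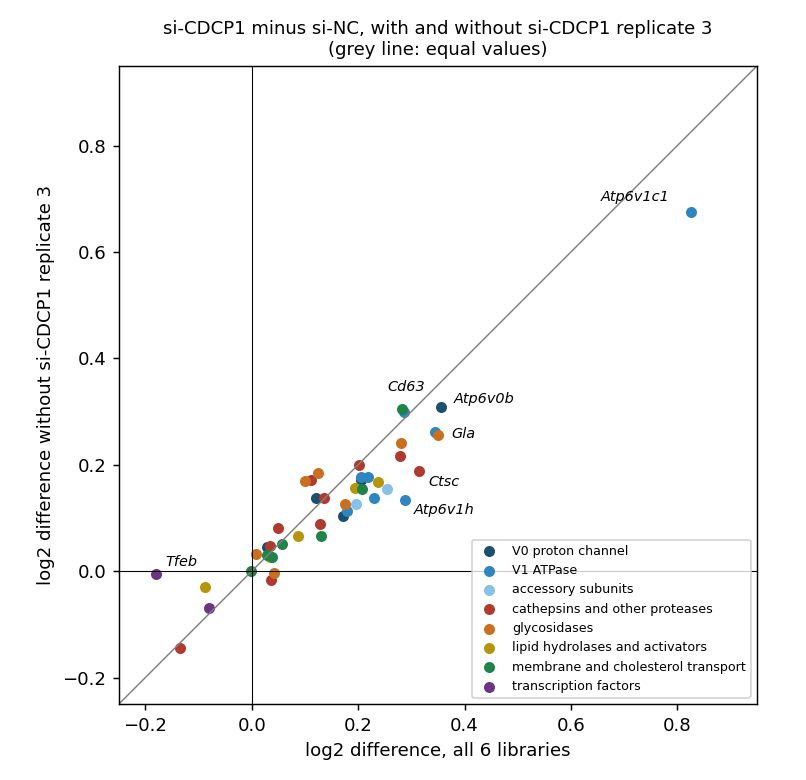
Log2 difference (si-CDCP1 minus si-NC) of each tested lysosomal gene with all 6 libraries (x axis) and without si-CDCP1 replicate 3 (y axis), coloured by class. Most points with higher values lie somewhat below the line of equal values, Atp6v1h and Ctsc among them, while Cd63 lies slightly above it and Tfeb moves to near 0.

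How many lysosomal genes were called depended on both the test and the treatment of si-CDCP1 replicate 3. Limma with library weights, which gave that library a weight of 0.165 and si-CDCP1 replicate 2 a weight of 5.11, called 11 of the 46 genes as higher, against 4.62% of all genes, and 0 as lower, against 2.54%. Limma voom without si-CDCP1 replicate 3, added after the data had been seen, found that 13 of the 46 genes rose, against 2.4% of all genes, and that 0 fell, against 1.06%. These 13 were Atp6v0b, Atp6v1f, Atp6v1g1, Ctsl, Ctsa, Ctsz, Hexa, Gla, Gaa, Grn, Asah1, Cd63 and Lamp1. The BH-adjusted p in that voom test was 0.00019 for Cd63, 0.000651 for Atp6v0b, 0.00281 for Atp6v1f and 0.00377 for Ctsl. Over all alternatives the adjusted p ranged from 0.00019 to 0.645 for Cd63, from 0.000651 to 0.645 for Atp6v0b, from 0.00281 to 0.645 for Atp6v1f and from 0.00377 to 0.645 for Ctsl. The weighted fit and this voom fit shared 8 genes, which is 72.7% of the 11 and 61.5% of the 13, and both rest on the same libraries. With si-CDCP1 replicate 3 left out, limma on log2(FPKM + 1) called 0 of the 46.

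Further lysosomal genes outside the set were counted in the same way, again without a call by limma after adjustment. Of 28 other hydrolase and related genes, 27 were tested and 18 had positive differences (median 0.04), against 52.3% of all genes. At an unadjusted p under 0.05, 5 were higher, against 8.94% of all genes, and 2 were lower, against 5.31%. The 2 were Pcyox1, at 28.6 ± 1.57 FPKM in si-CDCP1 and 31.7 ± 0.743 FPKM in si-NC, and the phospholipase gene Pla2g15, at 11.3 ± 0.648 FPKM in si-CDCP1 and 12.8 ± 0.434 FPKM in si-NC (SD, n = 3 each). The carboxypeptidase-like gene Scpep1 averaged 235 ± 8.10 FPKM in si-CDCP1 and 213 ± 4.16 FPKM in si-NC (SD, n = 3 each). Of 18 other V-ATPase subunits and assembly factors, 10 were tested and 6 had positive differences (median 0.03), against 52.3% of all genes. The assembly factors Tmem199 and Ccdc115 were the 2 higher at an unadjusted limma p under 0.05, against 8.94% of all genes, with 0 lower. Tmem199 averaged 22.1 ± 1.57 FPKM in si-CDCP1 and 18.3 ± 0.890 FPKM in si-NC and Ccdc115 5.29 ± 0.248 FPKM in si-CDCP1 and 4.41 ± 0.255 FPKM in si-NC (SD, n = 3 each), while Rogdi had a log2 difference of -0.18. Of 23 other lysosomal membrane genes, 18 were tested and 9 had positive differences (median 0.01), against 52.3% of all genes. At an unadjusted p under 0.05, 3 were higher, against 8.94% of all genes, and 1, Cd68, was lower, against 5.31%. Those higher included the transporter gene Mfsd1 (0.21 on the log2 scale) and the phosphoinositide phosphatase gene Tmem55b (0.26). Their differences were 0.17 and 0.18 without si-CDCP1 replicate 3. Without si-CDCP1 replicate 3 the medians were 0.04 for the hydrolase and related genes, 0.0043 for the V-ATPase genes and 0.03 for the membrane genes. Limma voom without that library called 0 of 27 hydrolase and related genes and 0 of 12 V-ATPase genes. It called 1 of 20 membrane genes, as higher, against 2.4% of all genes.

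Genes that deliver enzymes to lysosomes and genes of mTORC1 signalling were also followed. Of 12 sorting genes 7 had positive differences (median 0.08), against 52.3% of all genes, and 3 were higher at an unadjusted p under 0.05, against 8.94%, with 0 lower and 0 called by limma after adjustment. These 3 were Vps35, Vps26a and Vps29, which form the core of retromer, the coat that returns sorting receptors from endosomes. Vps35 averaged 36.4 ± 3.22 FPKM in si-CDCP1 and 30.8 ± 1.76 FPKM in si-NC (SD, n = 3 each), while the mannose 6-phosphate receptor genes M6pr and Igf2r had log2 differences of -0.013 and 0.14, which were 0.029 and 0.053 without si-CDCP1 replicate 3. Of 21 tested genes of mTORC1 and TFEB regulation, 14 had positive differences (median 0.07), against 52.3% of all genes and 58.7% of those averaging 5 FPKM or more. At an unadjusted p under 0.05, 5 were higher, against 8.94% of all genes, with 0 lower and 0 called by limma after adjustment. The 3 with the smallest p were Rragd, a Rag GTPase gene, Flcn, whose product acts on Rag GTPases, and Lamtor1, which anchors them to lysosomes. Rragd averaged 11.8 ± 0.281 FPKM in si-CDCP1 and 9.88 ± 0.438 FPKM in si-NC (SD, n = 3 each). Flcn averaged 21.2 ± 2.44 FPKM in si-CDCP1 and 16.2 ± 1.81 FPKM in si-NC, and Lamtor1 26.6 ± 1.48 FPKM in si-CDCP1 and 22.9 ± 1.26 FPKM in si-NC (SD, n = 3 each). Medians with si-CDCP1 replicate 3 left out were 0.04 for the sorting genes and 0.08 for the mTORC1 genes. Limma voom without that library called 1 of 12 sorting genes and 3 of 21 mTORC1 genes as higher, against 2.4% of all genes. Of 2 cystatin genes it called 1 as higher. The cystatin genes Cstb and Cst3, inhibitors of cysteine cathepsins, averaged 177 ± 4.70 FPKM in si-CDCP1 and 149 ± 6.49 FPKM in si-NC for Cstb and 145 ± 9.36 FPKM in si-CDCP1 and 130.1 ± 6.57 FPKM in si-NC for Cst3 (SD, n = 3 each), with log2 differences of 0.25 and 0.16.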

How the data were processed

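RNA was sequenced from 6 libraries, prepared with a SMARTER mRNA-Seq kit per the labels' protocols. The authors deposited FPKM per gene in 1 table with mouse Ensembl identifiers and gene lengths, per the file headers, and the genome build is mm10 per the submitters' processing notes. Which aligner and counter were used, and whether strand was, is not given in the sources used here. The FPKM times gene length were whole multiples of 1 step (100% of values above 0 within 0.01 read), which gave back the reads. The library totals so implied equalled median-of-ratios size factors scaled to the mean depth (largest difference 1.29e-09%), so that the deposited FPKM were already scaled between libraries by the median gene.

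Genes averaging 1 FPKM or more (12080) were tested on log2(FPKM + 1) with limma 3.58.1 in R 4.3.3 (moderated test with intensity trend, two-sided, BH adjustment over all genes, threshold 0.05). The labels do not tie replicates to separate animals, so p-values measure only how these libraries vary, which may be technical variation. Genes were assigned to classes by known function. The members and lists were chosen with earlier results of these data known, so their counts are descriptions. Values in every library are given for genes with an unadjusted p under 0.05, the 2 most abundant of each class, and Tfeb and Tfe3. In the further lists up to 3 genes with the smallest p are named, some of which are not reported here, and other genes were named after their values were seen. Alternatives were other pseudocounts (0.1 and 0.01 FPKM), filters (none, or a mean of 5 FPKM), protein-coding genes only, equal FPKM sums, library weights, a replicate block, removal of the length trend (lowess, span 0.3), voom on recovered reads (at least 10 reads in 3 libraries), and each library left out. Fits were tested on simulated data. No sequences were printed because no mouse sequence table was used here.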

Additional observations from a re-analysis of the deposited data

How the results depend on the processing

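Of the 46 tested genes, 35 kept the sign of their difference under every alternative run on them, 32 of them positive. Of the other 11, Tfeb (-0.18) had the largest difference in size and the remaining 10 lay between -0.0022 and 0.049. With equal FPKM sums, which put the median of all genes at -0.039 in place of 0.0077, the differences turned negative for Psap (-0.019), Ctsb (-0.019), Lgmn (-0.0053), Scarb2 (-0.015), Glb1 (-0.011), Gusb (-0.043), Mcoln1 (-0.022), Atp6v0a1 (-0.021) and Ctsh (-0.012). With library weights they turned negative for Mcoln1 (-0.000377), Atp6v0a1 (-0.041) and Ctsh (-0.058). In voom without si-CDCP1 replicate 3 the sign turned for Npc2 (0.000319), Glb1 (-0.0055), Ctsh (-0.015) and Tfeb (0.0016). With each library left out in turn, the differences lay between -0.014 and 0.032 for Gusb, -0.017 and 0.010 for Npc2, -0.035 and 0.076 for Atp6v0a1, -0.0029 and 0.091 for Glb1 and -0.017 and 0.092 for Ctsh. The cause was not tested for any of these reversals.

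Calls over all genes were 0 in the main limma test. They were 7 with no filter on low values (2 higher, 5 lower), 4 with a filter of 5 FPKM (1 higher, 3 lower), 2 with protein-coding genes only (both lower), 1 with equal sums (lower), 3 with the length trend removed (all lower), 5 in voom (all lower), 865 with library weights (558 higher, 307 lower) and 493 in voom without si-CDCP1 replicate 3 (342 higher, 151 lower). With each library left out in turn they lay between 0 and 1 (0 to 1 higher, 0 to 1 lower). Of the set, 11 genes were called with library weights and 13 in that voom fit, and 0 under every other alternative. The median of the set was 0.10 with equal sums. Of the class medians, equal sums moved the proteases to 0.066, the glycosidases to 0.075, the lipid class to 0.034 and the membrane class to 0.0083. No filter moved the proteases to 0.049, since it adds the 3 genes near 0, and the length trend moved them to 0.089. Library weights moved the lipid class to 0.042, and voom without si-CDCP1 replicate 3 the glycosidases to 0.17. With each library left out in turn, the median lay between 0.18 and 0.28 for V1, 0.090 and 0.14 for the proteases, 0.091 and 0.17 for the glycosidases, 0.056 and 0.12 for the lipid class and 0.052 and 0.093 for the membrane class. The cause of these shifts was not tested. With a replicate block, 1 gene (higher) was called over all genes and 0 of the set. Deviations of same-numbered libraries had correlations of -0.020, 0.026 and 0.022, and the labels do not pair them, so the number is taken as a name only. The least covered tested genes were Ctso, with 448 reads over the si-CDCP1 libraries, and Tfeb, with 105 reads in si-CDCP1 replicate 3. Counting error in these genes was not set apart from their differences. Ctsk, Ctsf and Ctss lie near the floor of 3 reads, between 0.0756 and 0.142 FPKM in these genes. Such floors cover counting error only.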
